A study of Mus musculus with 2 samples.

Results

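The 42 array genes described here carry the names of the Bcl-2 family, the caspases and their closest partners, and they were taken from 31492 array genes by name alone: names that start with BCL2, names made of CASP and a digit, and a fixed set of further names such as BAX, BID, APAF1 and BIRC4. RNA came from cells of the bone marrow of C57BL/6 mice aged 8 weeks, sorted as negative for CD3 and CD45R, low or negative for CD11b, and positive for CD115, the receptor of macrophage colony-stimulating factor (M-CSF). The cells were cultured for 3 days in medium with serum and with M-CSF alone at 30 ng/ml (control) or with M-CSF and RANKL, both at 30 ng/ml. RANKL is the cytokine that turns these precursors into osteoclasts, the cells that resorb bone. Only the cells that adhered at the end of culture gave RNA, so cells that had died and detached are not represented. Each group is the authors' mean of 3 biological replicates on separate Illumina bead arrays, and values below are means ± SD over the 3 arrays of a group.

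Apoptosis is decided by the balance between proteins of the Bcl-2 family. Anti-apoptotic members hold the pore-forming members in check, BH3-only members release them, and the pores let cytochrome c out of mitochondria, where it joins Apaf1 and caspase-9 in the apoptosome that activates executioner caspases. Other caspases act in inflammation: with the adaptor Pycard and sensors such as Nlrp3, caspase-1 processes interleukins and opens gasdermin pores. Osteoclasts are known as short-lived cells that depend on Bcl-2 family proteins for survival, with Bcl-xL (Bcl2l1), Mcl1 and Bim (Bcl2l11) the members most studied in mice. Caspases are made as inactive precursors, so RNA levels do not measure their activity.

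The cultures carried the markers of their labels. Among 10 monocyte and macrophage markers 9 were detected in each group, 6 were lower and 1 higher with RANKL, and their summed signal went from 160001 to 107763. Among 10 osteoclast markers 4 were detected in the M-CSF group and 8 in the RANKL group, all 8 higher, with summed signals of 2168 and 158164. Of these, Acp5, Ocstamp, Oscar and Itgb3 were detected only with RANKL, so they entered the test through the group in which they were high. Of 10 granulocyte markers on the array, 7 were detected in each group and 2 were lower, with summed signals of 17835 and 13170. The lists for B, T and NK, erythroid, stromal, mast, megakaryocyte and dendritic cells had 0 to 2 detected genes each in either group. Cd3e and Col1a1 read at background. The bright T cell marker Cd8b1 was called lower (2606 ± 322 and 2031 ± 141, adjusted p = 0.0153, limma), though detected only with RANKL. It gave most of its list's summed signals of 3494 and 2904. Cd79b, a B cell marker, was called lower (286 ± 7.64 and 205 ± 21.3, adjusted p = 0.00102, limma). The erythroid marker Epor was called higher (at least 1.02-fold, adjusted p = 0.023, limma), and it was tested only through RANKL, where it was high. In such bulk RNA, fewer cells of a type and less RNA per cell cannot be told apart.

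Of the 42 array genes, 32 were detected in at least 1 group (detection p under 0.01) and were tested. After adjustment over all 11012 tested genes 27 differed (limma, adjusted p under 0.05), 13 higher and 14 lower with RANKL. That is 84.4% of the tested members, against 57.8% of all tested genes (28.9% higher, 29.0% lower). The means ± SD did not overlap between groups in 27 of the 32, against 62.3% of all tested genes. The change was called and at least 2-fold for 8 members, against 13.9% of all tested genes. The median log2 fold was -0.22, against -0.0025 over all tested genes, and the median size of the log2 fold was 0.67 against 0.33. Bmf and Bok were detected only with RANKL and Pycard only with M-CSF alone, so these 3 entered the test through the group in which they were high. Undetected array genes had a median signal of about 145 in each group, which is taken here as the background. A level of that size compresses the folds of dim genes. The detection floor is 198 in the M-CSF group and 196 in the RANKL group. This is the lowest detected signal among array genes whose detection p moves in equal steps; other array genes, Xiap, Bcl2 and Bcl2l1 among them, were called detected at lower signals. Some genes had 1 group that was undetected and below the floor. Their fold is computed against that floor and given as "at least".

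**Figure D1:**
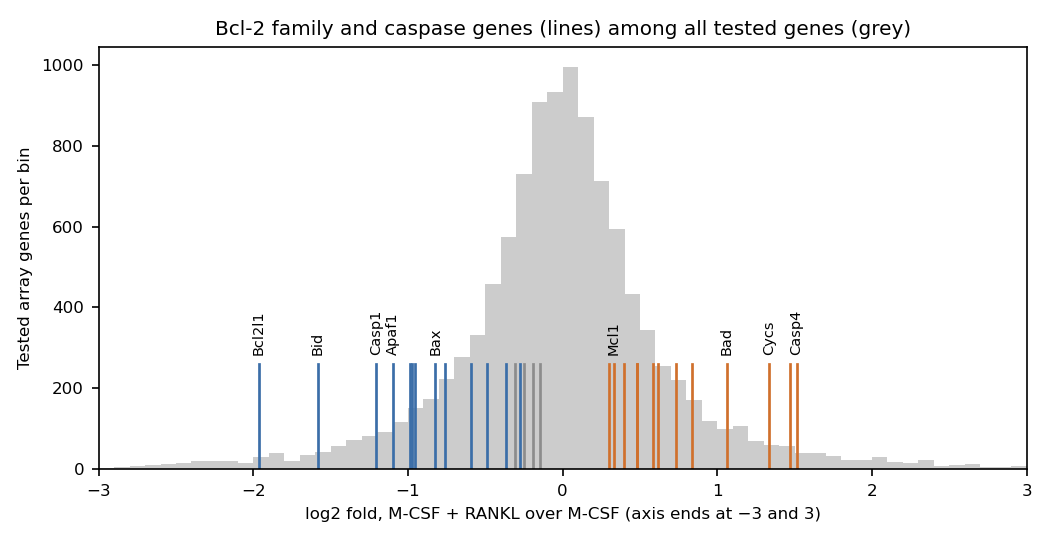
Log2 fold (M-CSF + RANKL over M-CSF) of 30 tested Bcl-2 family and caspase genes as vertical lines (orange higher, blue lower, grey not passing at an adjusted p of 0.05) over a histogram of all tested array genes in grey, whose axis ends at −3 and 3. The members lie on both sides of 0, from -1.97 (Bcl2l1) to 1.51 (Casp4).

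The anti-apoptotic members were lower with RANKL in 4 of 5 tested genes, and Mcl1 was the 1 that rose. Among all tested genes 29.0% were lower. Bcl2l1, which encodes Bcl-xL, had the largest fall among all members, from 753 ± 110 to 193 ± 10.2, or 3.90-fold (log2 -1.97 ± 0.11 SE, adjusted p = 3.64e-08, limma). The ranges of the groups lie far apart, and the level with RANKL is close to background, so the fold is understated: after subtraction of background it was 12.7-fold. Bcl2, the founding member of the family, went from 291 ± 19.9 to 193 ± 15.5, 1.51-fold lower, or 3.05-fold after subtraction of background. The larger fold is imprecise, because the level of Bcl2 with RANKL lies below the floor of 196. The adjusted p of Bcl2 was 0.000195 (limma), and the ranges did not overlap. Mcl1, a short-lived protein that protects many blood cells, rose from 12393 ± 168 to 15584 ± 792, 1.26-fold (log2 0.33 ± 0.07 SE, adjusted p = 0.00173, limma). That call was lost with both SDs doubled (adjusted p = 0.11). Bcl2l2 (Bcl-w) read 699 ± 80.1 and 703 ± 35.5, with overlapping ranges. Its detection p-values, 0.0239 and 0.0252, kept it from being tested although its signal was far above the floor. When genes were chosen by signal and not by detection p, its log2 fold was 0.0099 (adjusted p = 0.946, limma). Bcl2l10 (137 and 142) and Bcl2a1c (175 and 187) were detected in neither group.

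The A1 paralogs, mouse genes that NF-κB switches on in immune cells and that protect myeloid cells, fell side by side. Bcl2a1b went from 2865 ± 199 to 1457 ± 106, 1.97-fold lower (log2 -0.98 ± 0.10 SE, adjusted p = 5.26e-06, limma). Bcl2a1d went from 1938 ± 195 to 976 ± 66.4, 1.98-fold lower (log2 -0.99 ± 0.11 SE, adjusted p = 8.53e-06, limma). In both, the groups were well apart. Cross-hybridisation between the paralogs was not tested, so the values may not be independent. Granulocytes also express A1. All 7 detected granulocyte markers had a lower mean with RANKL. S100a8 and S100a9 were called lower (1.35-fold and 1.36-fold), and 5 did not pass. Among these, Fcnb and Ngp were close to the threshold (adjusted p = 0.0501 and 0.0511, limma). Mpo (4720 ± 2588 and 3400 ± 1525) scattered widely, and Camp read 399 ± 24.4 and 361 ± 21.2. The part of granulocytes in the falls of the A1 paralogs was not tested. The promoter windows of the paralogs are printed to show how alike they are. They come from RefSeq's table (GRCm38.p6) and run from 250 bases before to 50 bases after the annotated start. Capitals mark the bases that differ or have no partner where the windows overlap.
Bcl2a1b, chr9:89199023-89199322, strand +: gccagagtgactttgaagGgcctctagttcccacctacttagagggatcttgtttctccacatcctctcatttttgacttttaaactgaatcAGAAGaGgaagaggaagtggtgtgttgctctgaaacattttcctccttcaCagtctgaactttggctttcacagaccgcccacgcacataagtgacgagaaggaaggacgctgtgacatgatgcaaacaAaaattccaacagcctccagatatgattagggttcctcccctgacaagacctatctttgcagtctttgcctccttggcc
Bcl2a1d, chr9:88731801-88732100, strand -: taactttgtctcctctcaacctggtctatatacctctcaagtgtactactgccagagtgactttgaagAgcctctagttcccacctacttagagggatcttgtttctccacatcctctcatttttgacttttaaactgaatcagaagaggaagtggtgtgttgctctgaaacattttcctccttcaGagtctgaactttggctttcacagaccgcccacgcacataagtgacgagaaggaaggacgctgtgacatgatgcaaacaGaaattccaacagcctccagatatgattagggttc
The annotated starts are offset, so the windows overlap in part. The overlap paired 250 bases, of which 247 were identical, and 6 further bases of Bcl2a1b had no partner. Both windows hold 1 match to TGANTCA, searched on both strands. This pattern leaves the middle base open and is looser than the AP-1 consensus, which has C or G there. The match reads TGAATCA in both windows, so neither holds an AP-1 consensus site. The open pattern is in 7.81% of all 32851 windows and in 2 of the 51 windows that 38 member genes have, these 2. A match is a description and shows no binding.

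The pore-forming members went separate ways. Bax, a pore-former kept in the cytosol of healthy cells, fell from 6287 ± 432 to 3551 ± 290, 1.77-fold (log2 -0.82 ± 0.10 SE, adjusted p = 1.42e-05, limma), with ranges apart. Bak1, its counterpart on the mitochondrial surface, read 359 ± 27.8 and 290 ± 51.8, with overlapping ranges and an adjusted p of 0.0565 (limma, log2 -0.31, 95% interval -0.59 to -0.03). Bok, a relative found largely at the endoplasmic reticulum and not held back by the anti-apoptotic proteins, was at background with M-CSF alone (140 ± 5.32) and read 388 ± 24.2 with RANKL. It rose at least 1.96-fold (adjusted p = 4.09e-08, limma), and it was tested only because it was detected with RANKL, where it was high. With background subtracted from both groups its adjusted p was 0.0697, where the M-CSF level is set to 1 unit because it lies under the background.

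BH3-only members, which sense stress and unleash the pore-formers, showed 1 fall, 2 rises and 2 differences that did not pass. Bid, the link from death receptors to mitochondria once cut by caspase-8, fell from 1944 ± 502 to 648 ± 80.1, 3.00-fold (log2 -1.58 ± 0.17 SE, adjusted p = 6.47e-06, limma). The arrays of the M-CSF group scattered widely, but the ranges did not overlap. Without moderation of the variance its adjusted p was 0.0902. Bad, whose activity growth factor signalling holds down by phosphorylation, rose 2.09-fold from 1885 ± 139 to 3935 ± 437 (log2 1.06 ± 0.11 SE, adjusted p = 4.53e-06, limma). Bmf, which is bound to the cytoskeleton until cells lose their anchorage, went from 195 ± 29.1 to 256 ± 35.9, at least 1.29-fold higher (adjusted p = 0.0198, limma). Bmf too was tested only through the RANKL group, where it was high. Its ranges overlapped, and the call was lost under 3 of 9 alternatives, with adjusted p from 0.000854 to 0.298. Bcl2l11 (Bim), which drives the death of osteoclasts deprived of cytokines in mice, read 796 ± 44.7 and 719 ± 48.5 and did not pass (log2 -0.15, 95% interval -0.37 to 0.07, adjusted p = 0.231, limma). Bbc3 (Puma), a target of p53, read 559 ± 56.6 and 470 ± 11.4 (adjusted p = 0.0547, limma). Pmaip1 (Noxa), a partner of Mcl1, was detected in neither group, at 171 ± 7.23 and 224 ± 28.2. Its call as higher appears only where dim genes are tested (adjusted p = 0.00597 when genes were chosen by signal, limma). In that setting Pmaip1 was tested only through the RANKL group, where it was high, which favours a rise.

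Of 3 further genes with a BCL2 name, 1 fell, 1 rose and 1 was not tested. Bcl2l12 went from 340 ± 24.1 to 242 ± 11.4 (log2 -0.49 ± 0.09 SE, adjusted p = 0.000716, limma). Bcl2l13, a mitochondrial membrane protein that also takes part in mitophagy, went from 1176 ± 90.3 to 1644 ± 104 (log2 0.48 ± 0.10 SE, adjusted p = 0.00157, limma). Both calls were lost with both SDs doubled (adjusted p = 0.0714 and 0.105). Bcl2l14 was at background (140 and 142).

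**Figure D2:**
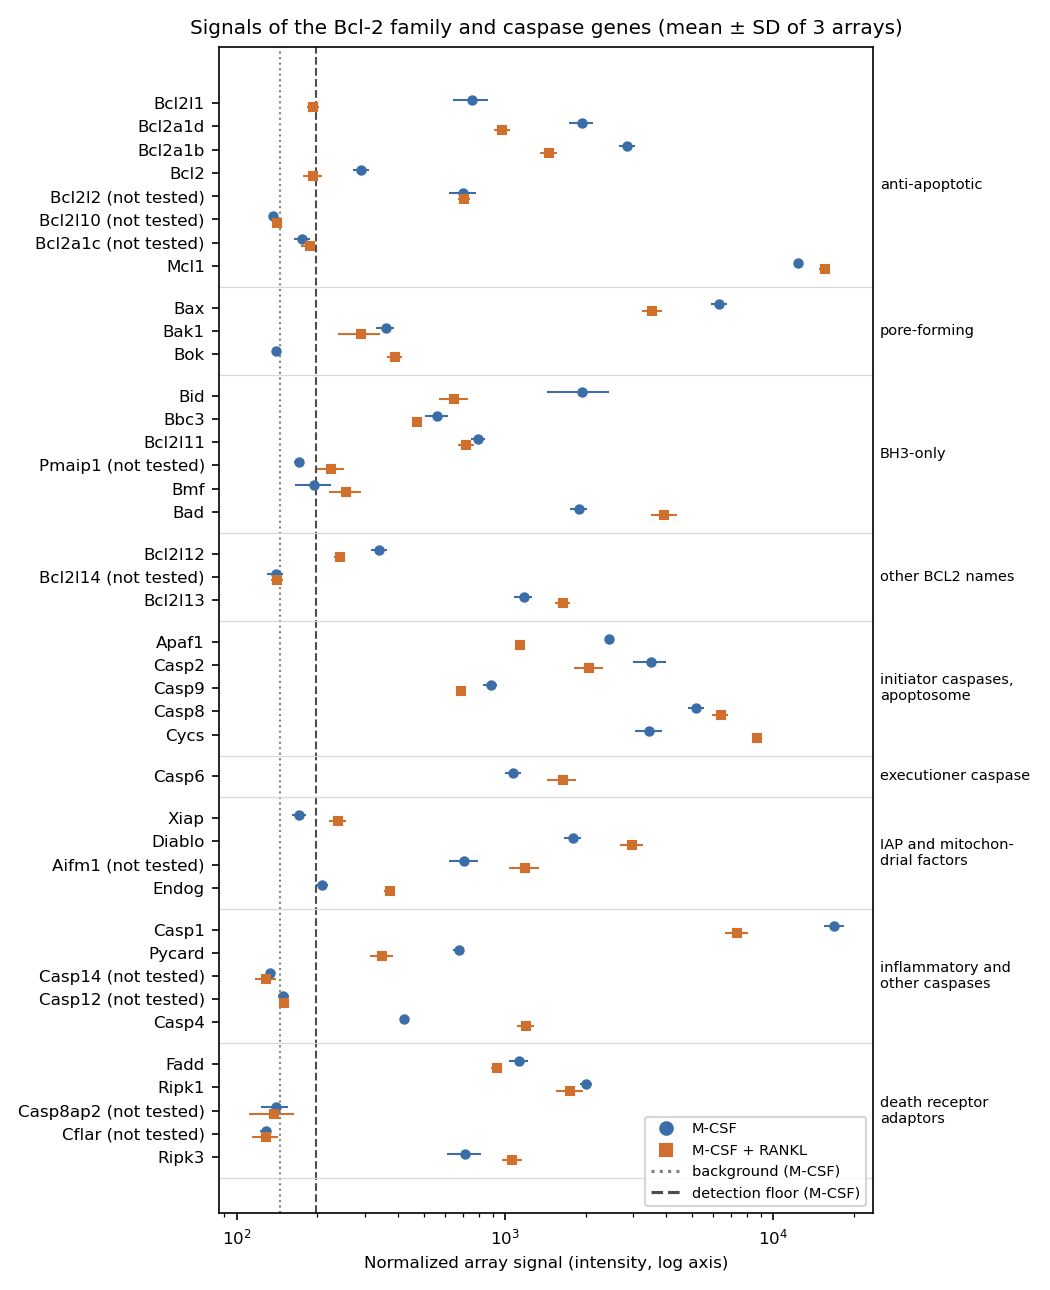
Mean signal ± SD of 3 arrays (log axis) of 40 of the 42 array genes, shown by current symbol and grouped by role, with M-CSF alone (blue circles) and M-CSF + RANKL (orange squares). The dotted line is the background and the dashed line the detection floor of the M-CSF group, 198; Bcl2l1 with RANKL and Bok with M-CSF alone sit below their floors, and Mcl1 and Casp1 far above.

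In the apoptosome, cytochrome c was higher while Apaf1 and caspase-9 were lower. Cycs, which encodes the cytochrome c of the respiratory chain, rose 2.52-fold from 3461 ± 401 to 8726 ± 93.2 (log2 1.33 ± 0.10 SE, adjusted p = 2.43e-07, limma). Apaf1, the scaffold of the apoptosome, fell 2.14-fold from 2449 ± 56.2 to 1144 ± 23.3 (log2 -1.10 ± 0.09 SE, adjusted p = 6.98e-07, limma). The SDs of Apaf1 were a small part of its means, and the groups lay far apart. A further array gene, named 6230400I06RIK, is a RefSeq synonym of Apaf1 outside the naming rule, and it fell 2.18-fold from 3598 ± 286 to 1649 ± 124 (adjusted p = 1.64e-06, limma). Casp9, the initiator caspase of the apoptosome, went from 884 ± 53.2 to 687 ± 20.4, 1.29-fold lower (adjusted p = 0.00648, limma). The call of Casp9 was lost with both SDs doubled (adjusted p = 0.195).

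Caspases of the other activation routes were split too. Casp2, an initiator that responds to DNA damage and mitotic faults, fell 1.69-fold from 3498 ± 490 to 2068 ± 251 (adjusted p = 0.000251, limma, or 0.0558 without moderation). Casp8, the initiator of the death receptor route, rose from 5172 ± 350 to 6378 ± 431, 1.23-fold (log2 0.30 ± 0.09 SE, adjusted p = 0.0129, limma). The ranges of Casp8 were apart, but its call was lost without moderation (adjusted p = 0.0567) and with both SDs doubled (0.254).

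Casp6, an executioner caspase that cuts nuclear lamins during apoptosis, rose 1.53-fold from 1075 ± 75.2 to 1644 ± 206 (log2 0.61 ± 0.11 SE, adjusted p = 0.000637, limma). The ranges of the groups were apart. The call was lost without moderation (adjusted p = 0.0693) and with both SDs doubled (0.0672).

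The 3 tested genes among the inhibitor Xiap and the death factors of mitochondria were all higher with RANKL, against 28.9% of all tested genes. Xiap, listed on the array as BIRC4, is an inhibitor of apoptosis that blocks caspases, and it went from 171 ± 10.0 to 238 ± 17.4 (log2 0.48 ± 0.09 SE, adjusted p = 0.000668, limma). After subtraction of background its fold was 3.62 in place of 1.39. The larger fold is imprecise, because the M-CSF level lies below the floor of 198 and not far above the background of 145. Doubling both SDs took its adjusted p to 0.0689 (limma). A second Xiap array gene, named 1110015C02RIK, was at background (124 and 141). Diablo (Smac), which frees caspases from Xiap, rose 1.66-fold from 1794 ± 129 to 2984 ± 286 (log2 0.73 ± 0.10 SE, adjusted p = 8.09e-05, limma). Endog, a mitochondrial nuclease, rose from 208 ± 11.2 to 372 ± 17.4, 1.79-fold or 3.61-fold after subtraction of background (adjusted p = 6.78e-06, limma). In all 3 the ranges of the groups were apart. Aifm1, the apoptosis-inducing factor that in healthy cells helps to assemble respiratory complexes, read 706 ± 86.5 and 1190 ± 153. It was not tested, with detection p-values of 0.0198 and 0.0118, and when genes were chosen by signal it was higher (log2 0.75, adjusted p = 0.000233, limma). Htra2, a mitochondrial protease named in the rule, is on the array only as PRSS25, and that array gene rose 1.97-fold from 2470 ± 194 to 4861 ± 145 (adjusted p = 2.55e-06, limma).

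**Figure D3:**
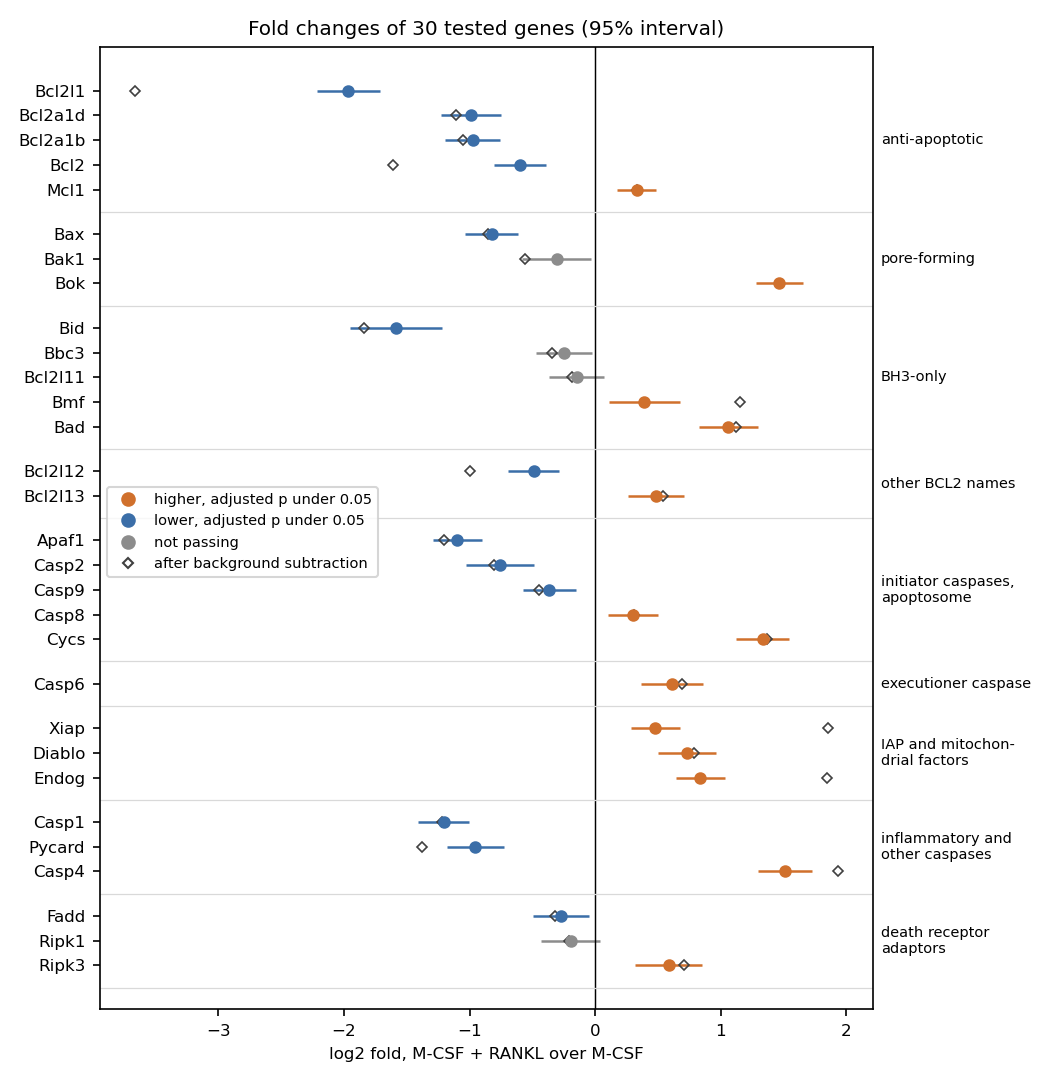
Log2 fold (M-CSF + RANKL over M-CSF) of 30 of the 32 tested genes with 95% intervals, grouped by role and coloured by call at an adjusted p of 0.05; open diamonds give the log2 fold after subtraction of background, left out for Bok, which is at background in the M-CSF group. Intervals of the 26 called genes drawn do not reach 0, and the diamonds of dim genes such as Bcl2l1, Xiap and Endog lie far outside the filled points.

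The inflammatory caspases moved apart. Casp1, which matures interleukins 1β and 18, fell 2.31-fold from 16911 ± 1429 to 7332 ± 706 (log2 -1.21 ± 0.09 SE, adjusted p = 4.21e-07, limma). Casp4, the mouse caspase-11 that binds bacterial lipopolysaccharide in the cytosol, rose 2.85-fold from 421 ± 5.66 to 1201 ± 86.2 (log2 1.51 ± 0.10 SE, adjusted p = 8.34e-08, limma), the largest rise among the members detected in both groups. In both genes the groups were far apart. Both calls held under all 9 alternatives, with the highest adjusted p at 0.0178 for Casp1 and 0.0235 for Casp4. The genes are direct neighbours on mouse chromosome 9 in RefSeq, with 0 protein-coding genes between them, and Casp12, which follows Casp4 there, was at background (149 and 150).

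Pycard (ASC), the adaptor that gathers caspase-1, went from 674 ± 33.5 to 348 ± 33.6, 1.94-fold lower (log2 -0.95 ± 0.10 SE, adjusted p = 7.89e-06, limma). It was not called detected with RANKL (detection p of 0.0648) although its signal lay above the floor, so it entered the test through M-CSF alone. Nlrp3, a sensor named in the rule, is on the array only as CIAS1, and that array gene fell at least 1.34-fold from 263 ± 17.7 to 158.2 ± 10.5 (adjusted p = 2.38e-05, limma). It too was tested only because it was detected with M-CSF alone, where it was high, which favours a fall. Of the 10 monocyte and macrophage markers 6 fell as well, from 1.44-fold (Csf1r) to 24.7-fold (Cx3cr1). Spi1 rose 1.59-fold, Cd68 and Lyz1 did not pass, and Ptprc was not tested. The part of these cells in the falls of Casp1, Pycard and Nlrp3 was not tested. Casp14, a caspase of the skin, was at background (134 and 129).

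Of 5 genes that couple death receptors to caspase-8 or to necroptosis, 1 fell, 1 rose, 1 did not pass and 2 were at background. Fadd, the adaptor that recruits caspase-8, went from 1129 ± 92.9 to 934 ± 45.8 (log2 -0.27 ± 0.10 SE, adjusted p = 0.0369, limma), a call lost under 4 of 9 alternatives with adjusted p from 0.0272 to 0.371. Ripk1, a kinase that directs the choice between survival and death, read 2005 ± 102 and 1754 ± 202, with overlapping ranges (log2 -0.19, 95% interval -0.43 to 0.04, adjusted p = 0.145, limma). Ripk3, the kinase that starts necroptosis, rose from 710 ± 103 to 1066 ± 89.3 (log2 0.59 ± 0.12 SE, adjusted p = 0.00145, limma, or 0.101 with both SDs doubled). The array gene named CFLAR, for the caspase-8 inhibitor c-FLIP, was at background (128 in both groups). Another array gene that RefSeq lists as Cflar, 2310024N18RIK, read 916 ± 20.9 and 928 ± 48.6 and did not pass (log2 0.02, 95% interval -0.19 to 0.23, adjusted p = 0.873, limma). Casp8ap2 (FLASH), which came in through its name and is no caspase, was at background (140 and 137).

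Of the genes in the rule, BIK, HRK, HTRA2, NLRP3, TRADD and XIAP had no array gene of that exact name. RefSeq synonyms gave 8 further array genes for rule genes, 5 of them tested, which are not counted among the 42. Bik, a BH3-only protein listed as BIKLK, fell at least 1.28-fold from 252 ± 21.2 to a level at background (adjusted p = 1.42e-05, limma). It was tested only because it was detected with M-CSF alone, where it was high. Hrk, listed as BID3, was at background in both groups (142 and 143), as was a second array gene of Bcl2 (137 and 142).

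The genes around the members were taken from 5 lists of pathway partners. Death receptors and ligands had 5 of 6 tested genes lower, 0 higher and 1 not passing (median log2 -0.97). Over all tested genes 29.0% were lower and 28.9% higher. Tnfrsf21 (death receptor 6) fell 3.76-fold from 2809 ± 322 to 747 ± 104, the cytokine Tnf fell 2.84-fold from 1988 ± 149 to 700 ± 40.9, and the TNF receptor Tnfrsf1b fell 2.01-fold from 626 ± 66.1 to 311 ± 31.0. Tnfrsf1a, the TNF receptor that carries a death domain, fell 1.90-fold from 1274 ± 101 to 670 ± 22.6. Fas ligand (142 and 133) and Tnfsf10 (147 and 135) were at background.

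Inhibitors of apoptosis other than Xiap were split. Birc2 and Birc3, the cIAPs that ubiquitinate Ripk1, rose 1.87-fold and 1.88-fold, from 618 ± 77.3 to 1159 ± 29.8 and from 216 ± 7.74 to 407 ± 36.6. Naip2 and Naip5, sensors of bacterial proteins, fell 2.29-fold (810 ± 78.7 to 354 ± 50.3) and 2.20-fold (718 ± 77.2 to 327 ± 45.9). Birc5 (survivin), which also acts in cell division, fell 1.83-fold from 8017 ± 360 to 4392 ± 535. In all, 2 rose, 3 fell and 1 of 6 did not pass.

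In pyroptosis and necroptosis, 4 of 9 tested partners rose, 4 fell and 1 did not pass. Gsdmd, the gasdermin that caspases 1 and 11 cut to form pores, rose 2.34-fold from 2596 ± 152 to 6075 ± 275 (log2 1.23 ± 0.09 SE), and Mlkl, the membrane-breaking target of Ripk3, rose 1.75-fold from 1877 ± 229 to 3293 ± 70.6. Il18, a substrate of caspase-1, fell 3.83-fold from 835 ± 56.5 to 218 ± 12.5. It was not called detected with RANKL (detection p of 0.0165), so it entered the test through M-CSF alone, where it was high. Mefv (pyrin), another inflammasome sensor, rose 2.03-fold from 476 ± 75.5 to 965 ± 111, whereas the sensors Nlrc4 and Aim2 fell 1.80-fold and 1.38-fold. Il1b read 207 ± 4.27 and 200 ± 17.7 and did not pass (adjusted p = 0.669, limma).

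Caspase substrates and genes of DNA fragmentation gave 3 rises, 2 falls and 5 differences of 10 that did not pass. Xkr8, the scramblase that caspases activate to expose phosphatidylserine, rose 3.85-fold from 448 ± 6.34 to 1723 ± 139, and the lamin Lmna rose 2.27-fold from 11165 ± 1178 to 25339 ± 2068. The lamin Lmnb1 fell 2.35-fold from 8105 ± 1052 to 3449 ± 930, and Parp1, a DNA repair enzyme cut by executioner caspases, fell 2.19-fold from 5347 ± 490 to 2445 ± 102. Among 18 tested upstream and mitochondrial partners 6 rose, 3 fell and 9 did not pass. Ier3, an early response gene that protects against TNF-induced death, fell 6.61-fold from 3944 ± 244 to 596 ± 44.8 (log2 -2.73 ± 0.10 SE, adjusted p = 8.07e-10, limma). The mitochondrial channels Vdac1 and Vdac2, the latter a binding partner of Bak1, rose 1.77-fold and 1.59-fold. Trp53 (1226 ± 42.3 and 1141 ± 90.6) and Mdm2 (5748 ± 236 and 5197 ± 481), the core of the p53 circuit upstream of Bbc3 and Bax, did not pass. Trp53 was not called detected with RANKL (detection p of 0.0388). Over the 5 lists 65.3% of 49 tested genes were called, against 57.8% of all tested genes.

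**Figure D4:**
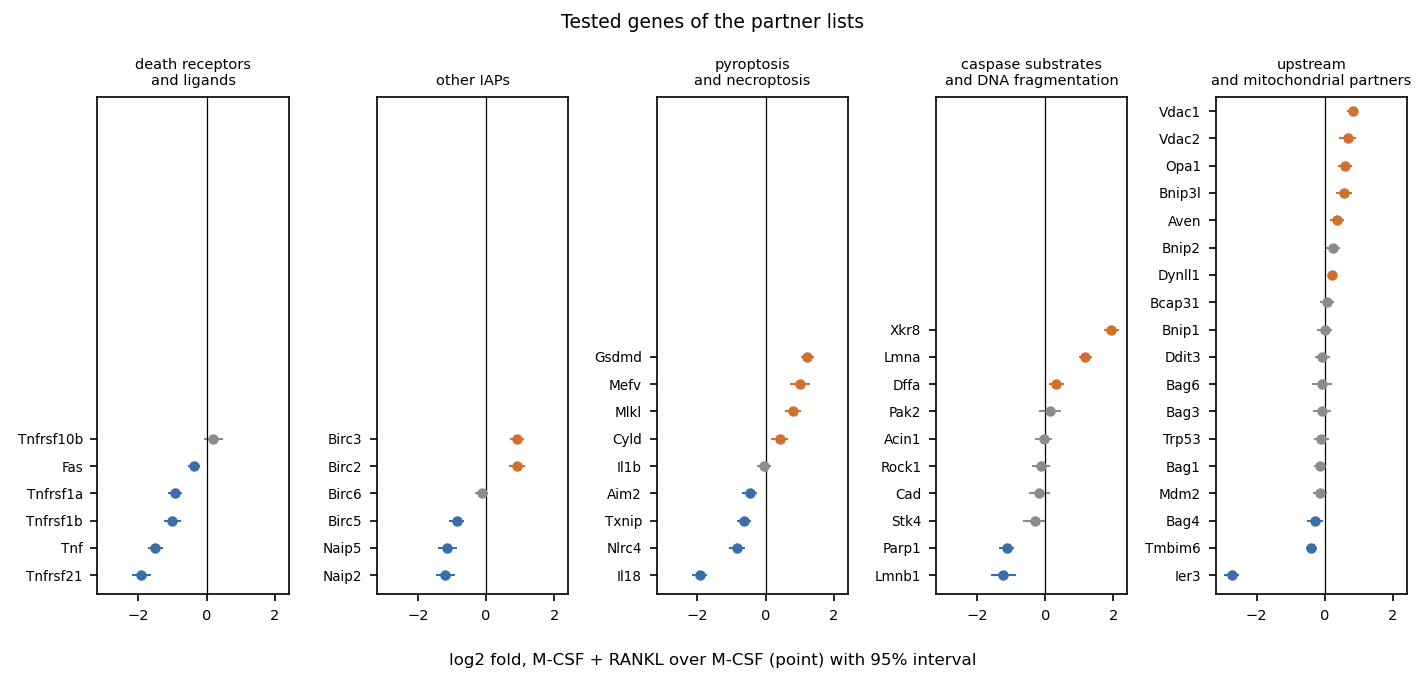
Log2 fold (M-CSF + RANKL over M-CSF) with 95% intervals of the 49 tested partner genes in 5 lists, orange higher, blue lower and grey not passing at an adjusted p of 0.05. In the death receptor list 5 of 6 genes lie below 0 and are called, and Ier3 has the largest fall of any list.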

How the data were processed

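RNA of 2 groups was hybridised to Illumina bead arrays, 3 per group. Per the labels and the file headers, the authors deposited for each array gene a normalized linear intensity (mean over the arrays), its SD between arrays (a score in intensity units), a detection p-value and a ratio of the means. The sources used here give neither the normalization and software nor the array version. The deposited ratio equals RANKL over M-CSF, the reverse of its header, and was not used. The labels call the arrays biological replicates without saying whether mice or cultures differed, so p-values measure only the spread between these samples, which may be technical. The number of arrays limits the precision.

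Each difference was computed as log2 of the ratio of means. Its variance came from the SDs (delta method), was pooled on 4 degrees of freedom and was moderated with an intensity trend (squeezeVar in limma 3.58.1, R 4.3.3). P-values are two-sided and Benjamini-Hochberg adjusted over the 11012 array genes that either group detected (p under 0.01). The procedure was tested on simulated data. Array names were matched to RefSeq (GRCm38.p6): 41 of 42 members by current symbol and 1 by synonym. In partner and marker lists the brightest array gene stands for a symbol. Partner genes are named where called and at least 2-fold changed, or where close to a member. Detection floors rest on detection p-values in steps of 1 in 936. Promoters were also searched for SP1, NF-κB, ISRE, NRF1 and GAS motifs, not reported here. The values of 2 members are not reported here, though all counts include them. The members, lists and tests were chosen with earlier results of these data known.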

Additional observations from a re-analysis of the deposited data

How the results depend on the processing

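Of the 27 calls, 14 held under all 9 alternatives. No tested member changed direction, but this was no test of direction, because all 9 reuse the same group means. With both SDs doubled 3054 array genes were called in place of 6369, and 6 members higher in place of 13, with 11 lower. Without moderation, on the linear means, 3868 array genes were called, and 10 members higher and 11 lower. With no filter on detection the median log2 fold of the members was 0.0063 in place of -0.22, because the 10 members left untested enter. With that setting 15 members were higher and 13 lower, and when genes were chosen by signal 15 and 14. Centring on the median or testing genes with a detection p under 0.05 changed no call among the 32. Subtraction of background raised the fold of 6 tested members by over 1.5 times (Bcl2l1, Bcl2, Bmf, Bok, Xiap and Endog) and lowered 0 by as much, and 15 called members then changed at least 2-fold, against 25.6% of all tested genes. Bak1 passed with group variances not pooled (adjusted p = 0.0167, limma), and Bbc3 without the trend (0.0449) and after subtraction of background (0.0499). Signal over background limits Bcl2, Bcl2l1, Xiap and Bok. No paired analysis was possible because the table holds 1 mean per group, which also leaves no replicate to leave out.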

Other observations

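Besides Casp1 and Casp4, another pair of neighbouring members moved in opposite directions. Bid and Bcl2l13 have 0 protein-coding genes between them on mouse chromosome 6 in RefSeq, and Bid fell by 1.58 on the log2 scale while Bcl2l13 rose by 0.48. Casp8 and Cflar are direct neighbours on chromosome 1. Casp8 rose by 0.30, and the detected array gene of Cflar differed by 0.02 and did not pass. Apaf1 and Cflar each have a second array gene under another name. In Apaf1 both fell (log2 -1.10 and -1.13). In Cflar the one that carries the gene's name was at background and the other was detected in both groups, so a search by name alone would list Cflar as undetected.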
